A study of Rattus norvegicus with 7 samples.

Results

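The genes of transforming growth factor beta (TGF-beta) and of the renin-angiotensin system were followed in isolated rat alveolar type 2 cells, the cells of the lung alveolus that make surfactant. The genes were chosen by symbol: the ligands Tgfb1, Tgfb2 and Tgfb3, the receptors Tgfbr1, Tgfbr2 and Tgfbr3, and Agt, Ace, Agtr1a and Agtr2. Every probe set that the array's annotation gave to 1 of these symbols alone was taken, which were 16 of the 8740 probe sets tested. They covered 9 of the 10 genes, among 4736 genes measured in all, with 8 probe sets for TGF-beta genes and 8 for renin-angiotensin genes. Tgfbr2 had 0 such probe sets and was not analysed here. A further probe set, L36664_s_at, was annotated to both Ace3 and Ace and was therefore not counted.

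The cells came from 3 rats given ethanol as 36% of calories in a Lieber-DeCarli liquid diet for 6 weeks, and from 4 rats given an isocaloric diet free of ethanol for the same time. All were male Sprague Dawley rats, and their ages were not given in the sources used here. Cells were purified by immune adsorption and their total RNA was read on 1 Affymetrix array per animal. Ethanol arrays carry the replicate numbers 2, 3 and 4, and control arrays 1, 2, 3 and 4.

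TGF-beta is secreted in a latent form, held by its own propeptide and by latent TGF-beta binding proteins in the matrix, and acts once integrins or proteases release it. The free ligand is bound by the type II receptor, which recruits and phosphorylates the type I receptor, and SMAD proteins then carry the signal to collagen, elastin and other matrix genes. In the renin-angiotensin system, renin cuts angiotensinogen to angiotensin I, the converting enzyme trims it to angiotensin II, and its receptors on the cell surface take up the signal. The systems are linked, because angiotensin II can induce TGF-beta1, and both have been studied in the lungs of ethanol-fed rats, where the question is how chronic ethanol intake alters the alveolar epithelium.

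Values are log2 expression values as deposited, so a difference of 1 is a doubling. Arrays were alike in mean (4.76 on each) and differed in the spread of their values. The SD of log2 values over all probe sets was 1.34, 1.39 and 1.46 on ethanol arrays 2, 3 and 4, against 1.40, 1.29, 1.36 and 1.44 on control arrays 1 to 4. Sftpc, which encodes surfactant protein C, was the brightest probe set over the 7 arrays. All 9 measured type 2 cell markers lay at or above percentile 83.6 of mean level. Their summed linear level was 10446, 13702 and 13790 in ethanol arrays 2, 3 and 4, against 12522 to 13608 in controls. Ethanol 2 was thus the lowest array in that sum. The sample titles open with a number, which is lower for every control array than for any ethanol array. The labels do not say what it stands for. If it is the order of processing, diet and array order cannot be told apart. Each comparison rests on 7 arrays, and their number limits the precision.

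No gene of either system passed the test between the diets. In limma, 0 of the 16 probe sets had an adjusted p under 0.05, where 0.149% of all probe sets did, and 0 had an unadjusted p under 0.05, where 4.58% did. In 0 of the 16 were the ethanol arrays all above or all below the controls, which was so in 5.24% of all probe sets. Differences ran from -0.26 to 0.21, with 9 above 0 and 7 below. Their median size, sign set aside, was 0.10 on the log2 scale, and that over all probe sets was 0.11. The outermost bounds of the 16 confidence intervals (95%) stood for ethanol levels of 0.597 and 1.51 times the control level. A missed threshold does not show that levels were equal, so the interval is given with each gene. In a bulk isolate, fewer cells of a type and less RNA per cell cannot be told apart.

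Among the ligands, Tgfb1 had the difference furthest from 0, and its size varied with the arrays used. Tgfb1 encodes the isoform most studied in lung fibrosis. Its probe set X52498cds_at read 6.01, 5.66 and 6.02 in ethanol arrays 2, 3 and 4, against 5.99, 5.76, 6.18 and 6.71 in control arrays 1 to 4. Control 4 was the highest of the 7 arrays and ethanol 3 the lowest, and the groups overlapped. The means were 5.90 ± 0.20 (SD, n = 3) with ethanol and 6.16 ± 0.41 (SD, n = 4) in controls. The log2 difference was -0.26 (SE 0.21, limma adjusted p = 0.967), an ethanol level of 0.833 times the control level with a 95% confidence interval of 0.597 to 1.16. The difference was -0.079 without control 4, -0.15 without ethanol 3 and -0.40 without control 2. Array weights gave ethanol 3, the lowest array here, the highest weight, 2.93, and control 2 the lowest weight, 0.392. With these weights the difference was -0.42 (limma adjusted p = 0.379).

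Markers of other cells that can release TGF-beta1 were read beside it. The summed linear level of the 8 measured macrophage and monocyte markers ran from 2789 to 4126 in ethanol arrays and from 3131 to 4594 in controls, with control 4 at 4428 and control 1 highest. That sum was led by Lyz2, which type 2 cells of rodents also express. The dimmest of the 8 was the myeloid integrin gene Itgam, at percentile 2.55 of mean level. Taken gene by gene, 7 of the 8 had a difference above 0 (87.5%, against 46.6% of all genes), with a median of 0.070. The 4 measured platelet markers, included because platelets store TGF-beta1, summed to 126 to 138 in ethanol arrays and 119 to 134 in controls. The part of these cells in the Tgfb1 value was not tested.

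Tgfb2 and Tgfb3, the other isoforms, are active in lung development. Tgfb2 (M96643_at) read 5.64, 5.43 and 5.36 in ethanol arrays 2, 3 and 4, against 5.56, 5.22, 5.39 and 4.91 in control arrays 1 to 4. Ethanol 2 was the highest and control 4 the lowest, so that control 4 held opposite ends of the range in Tgfb1 and Tgfb2. The difference was 0.21 (SE 0.16, limma adjusted p = 0.967), a ratio of 1.15 with a 95% confidence interval of 0.893 to 1.49. Without control 4 it was 0.087.

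Tgfb3 had a pair of probe sets from the same sequence entry, U03491, and both had a difference below 0. U03491_g_at read 5.50, 5.63 and 5.23 in ethanol arrays 2, 3 and 4, against 5.92, 5.76, 5.70 and 5.30 in control arrays 1 to 4. The 3 other controls lay above all ethanol arrays and control 4 lay among them. The difference was -0.22 (SE 0.17, limma adjusted p = 0.967), a ratio of 0.860 with a 95% confidence interval of 0.662 to 1.12. Without control 4 it was -0.34, with an unadjusted p of 0.0495 and an adjusted p of 0.553 in limma. U03491_at read 5.24, 5.10 and 4.96 in ethanol arrays 2, 3 and 4, against 5.14, 5.33, 5.28 and 4.87 in control arrays 1 to 4, with a difference of -0.056 (95% confidence interval -0.38 to 0.27). It was 0.013 without ethanol 4, whereas U03491_g_at stayed below 0 with each array left out.

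The receptors showed no shared direction, and the probe sets of a gene went against each other. Tgfbr1 encodes the type I receptor kinase, and its L26110_at read 4.39, 4.79 and 4.24 in ethanol arrays 2, 3 and 4, against 4.42, 4.20, 4.61 and 3.97 in control arrays 1 to 4. Its difference was 0.18 (SE 0.19, limma adjusted p = 0.969), with an interval of 0.846 to 1.51 as a ratio, the widest upward of the 16. The other Tgfbr1 probe set, S81584_s_at, read 5.18, 5.10 and 4.69 in ethanol arrays 2, 3 and 4, against 4.91, 5.17, 5.30 and 4.995 in control arrays 1 to 4. Here ethanol 4 was the lowest array and the difference was -0.10 (95% confidence interval -0.45 to 0.25). The difference of L26110_at was 0.019 without ethanol 3, and that of S81584_s_at was 0.050 without ethanol 4.

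Tgfbr3 encodes betaglycan, the co-receptor that presents ligand, TGF-beta2 above all, to the signalling receptors. Its M77809_at read 4.81, 4.91 and 4.64 in ethanol arrays 2, 3 and 4, against 4.90, 4.89, 4.64 and 4.48 in control arrays 1 to 4. Its M80784_s_at read 4.70, 4.61 and 4.84 in ethanol arrays 2, 3 and 4, against 4.74, 4.50, 5.09 and 4.56 in control arrays 1 to 4. The ethanol arrays lay wholly within the control range in M80784_s_at, and ethanol 3 alone lay above it in M77809_at. The difference was 0.067 (95% confidence interval -0.25 to 0.39, limma adjusted p = 0.971) in M77809_at, and -0.016 without control 4. In M80784_s_at it was -0.0068 (95% confidence interval -0.36 to 0.35, limma adjusted p = 0.999).

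**Figure D1:**
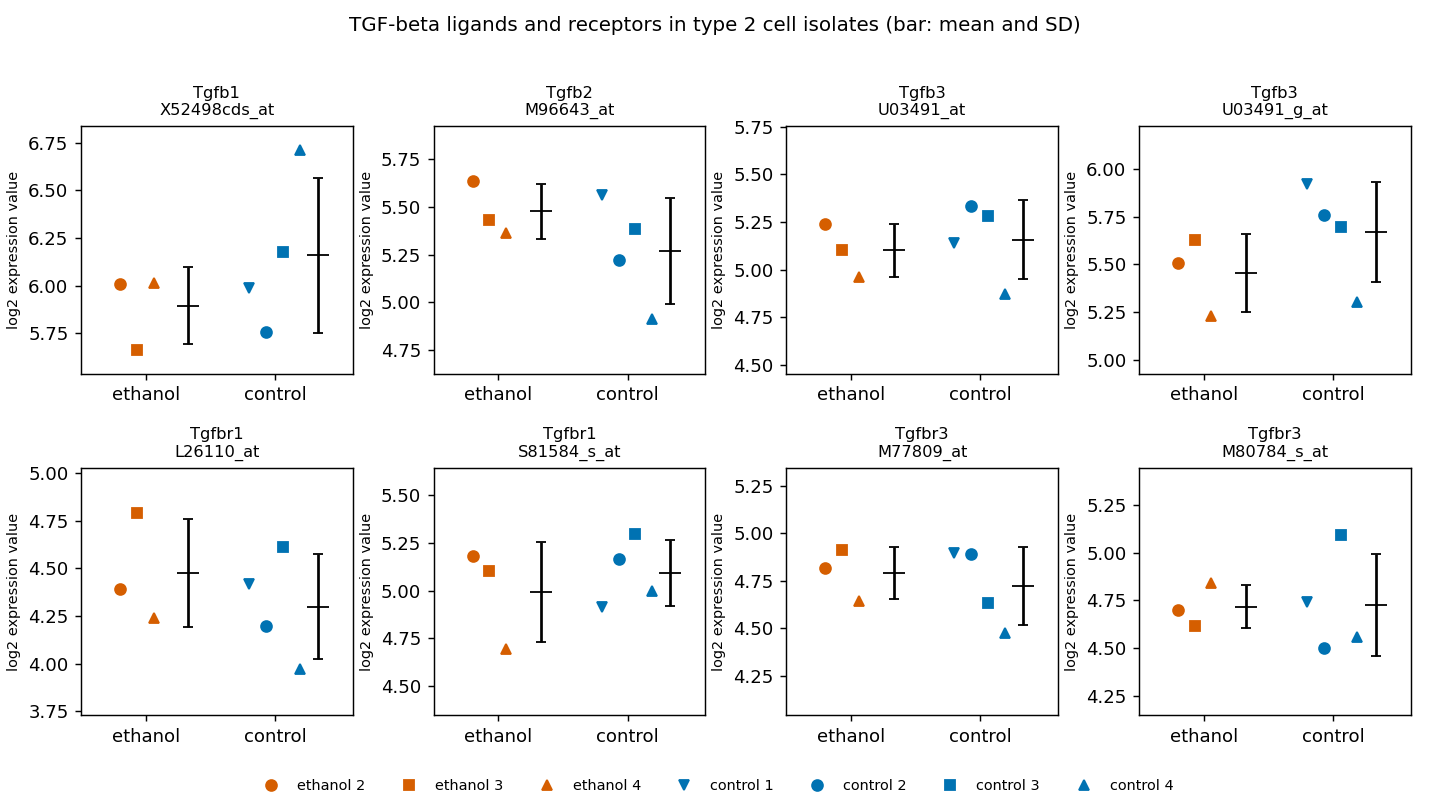
Log2 expression values of the 8 TGF-beta probe sets on each array, ethanol left and control right; bars give mean and SD, marker shapes give replicate numbers, and each panel spans the same height. Control 4 is the highest array in Tgfb1, at 6.71, and the lowest in Tgfb2, at 4.91, and the groups overlap in every panel.

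In the renin-angiotensin system, the precursor and the converting enzyme had the smallest standard errors of the 16, both 0.12, and neither passed the test. Agt encodes angiotensinogen, which the liver secretes and which injured alveolar epithelial cells have also been reported to make. Its rc_AA943892_at read 5.78, 5.58 and 5.55 in ethanol arrays 2, 3 and 4, against 5.78, 5.88, 5.71 and 5.60 in control arrays 1 to 4. Control 2 was the highest and ethanol 4 the lowest array. The means were 5.64 ± 0.12 (SD, n = 3) with ethanol and 5.74 ± 0.12 (SD, n = 4) in controls. The difference was -0.11 (SE 0.12, limma adjusted p = 0.971), a ratio of 0.929 with a 95% confidence interval of 0.769 to 1.12.

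Ace encodes the angiotensin-converting enzyme, which lies on the surface of lung capillary endothelium. Its U03734_at read 5.51, 5.51 and 5.27 in ethanol arrays 2, 3 and 4, against 5.38, 5.25, 5.36 and 5.35 in control arrays 1 to 4. Ethanol 2 and ethanol 3 lay above all controls and ethanol 4 lay among them. The difference was 0.094 (SE 0.12, limma adjusted p = 0.971), a ratio of 1.07 with a 95% confidence interval of 0.892 to 1.28. Without ethanol 4 it was 0.17. The probe set with both symbols, L36664_s_at, stood at a difference of 0.096 (95% confidence interval -0.20 to 0.39). Beside these values, the 10 measured endothelial markers summed to 461 to 531 on the linear scale in ethanol arrays and to 483 to 535 in controls. Of those markers Kdr, a growth factor receptor of endothelium, and Pecam1 lay at percentiles 9.44 and 28.1 of mean level, and Thbd, the thrombomodulin gene, at 93.7. The part of endothelial cells in the Ace signal was not tested.

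Agtr1a encodes the AT1 receptor, through which angiotensin II constricts vessels and promotes matrix synthesis, and had 4 probe sets. All 4 had differences above 0, of 0.045 to 0.14, with limma adjusted p of 0.967 to 0.979, and 2 of them changed sign with single arrays left out. The difference of 0.14 was that of M86912exon_g_at, which read 4.00, 3.82 and 3.77 in ethanol arrays 2, 3 and 4, against 3.43, 3.81, 3.86 and 3.77 in control arrays 1 to 4. Control 1 stood below the rest, and without it the difference was 0.045. X62295cds_s_at read 5.29, 4.93 and 4.94 in ethanol arrays 2, 3 and 4, against 4.54, 5.08, 4.97 and 5.30 in control arrays 1 to 4. Control 1 was again the lowest array, and the difference of 0.084 (95% confidence interval -0.33 to 0.50) turned to -0.060 without it.

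M86912exon_at, from the same entry as M86912exon_g_at, read 4.58, 4.71 and 4.49 in ethanol arrays 2, 3 and 4, against 4.43, 4.78, 4.45 and 4.52 in control arrays 1 to 4. Its difference of 0.045 turned to -0.012 without ethanol 3. M74054_s_at read 2.85, 2.99 and 2.72 in ethanol arrays 2, 3 and 4, against 2.83, 2.93, 2.66 and 2.71 in control arrays 1 to 4. It lay at percentile 4.41 of mean level, near the floor of the array, where a change could go unread. The suffixes _s_at and _f_at mark probes that related transcripts can share on arrays of this generation, and Agtr1b is a close copy of Agtr1a in the rat. The 4 probe sets of Agtr1b, all with the suffix _f_at, had differences of -0.12 to 0.17. Readings of probe sets with these suffixes cannot be assigned to 1 receptor gene with certainty. M86912exon_at and M86912exon_g_at carry neither suffix, and whether they also read Agtr1b was not tested.

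Agtr2 encodes the AT2 receptor, which opposes many AT1 effects and is most abundant before birth. Its D16840_s_at had the lowest p of the 16. It read 3.26, 2.92 and 3.05 in ethanol arrays 2, 3 and 4, against 2.64, 2.93, 2.95 and 2.94 in control arrays 1 to 4. Ethanol 2 was the highest array, control 1 lay apart below the other controls, and ethanol 3 lay among the controls. The difference was 0.21 (SE 0.14, limma unadjusted p = 0.151, adjusted p = 0.967), and the probe set lay at percentile 6.18 of mean level. The other Agtr2 probe set, U01908cds_s_at, went the other way. It read 3.89, 3.93 and 3.65 in ethanol arrays 2, 3 and 4, against 4.01, 4.19, 4.01 and 3.68 in control arrays 1 to 4, a difference of -0.15 (95% confidence interval -0.48 to 0.18). The mean of both probe sets differed by 0.032.

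**Figure D2:**
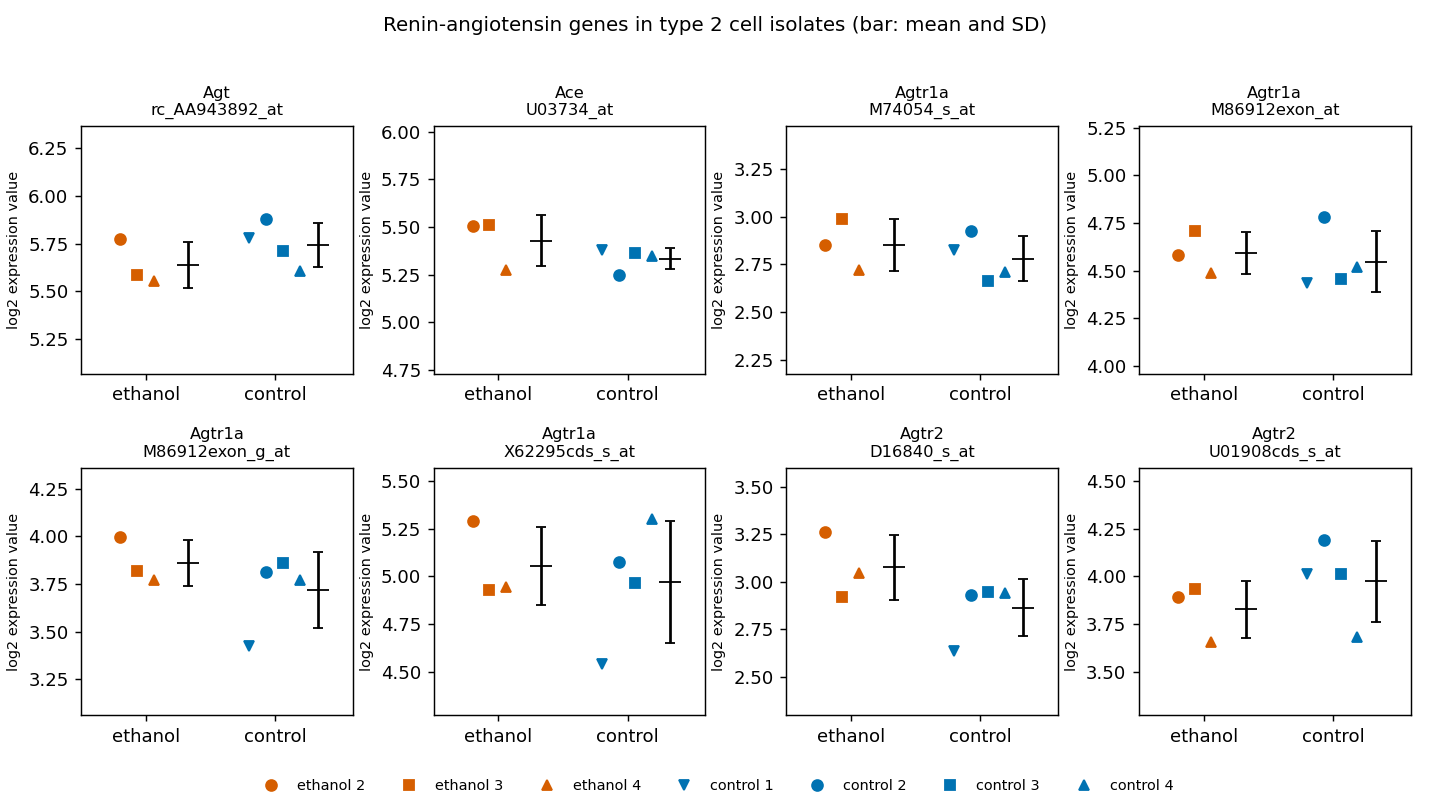
Log2 expression values of the 8 renin-angiotensin probe sets on each array, ethanol left and control right; bars give mean and SD, marker shapes give replicate numbers, and each panel spans the same height as in the TGF-beta plot. Agt and Ace vary little, control 1 lies lowest in 3 of the 4 Agtr1a panels and in Agtr2 D16840_s_at, at 2.64, and the groups overlap in every panel.

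**Figure D3:**
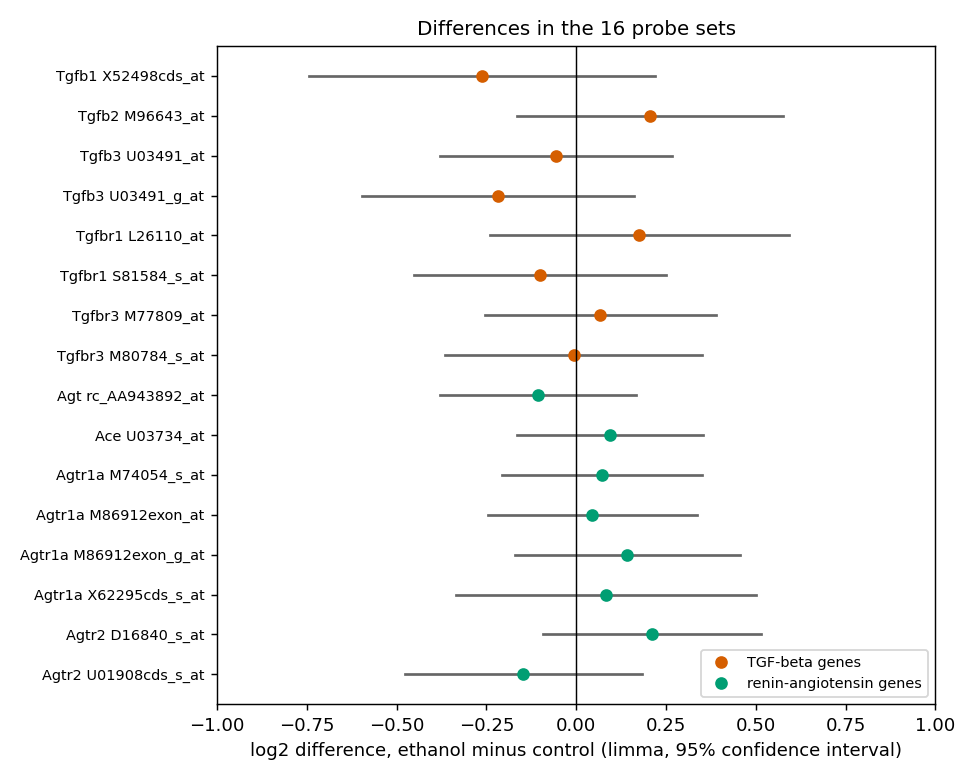
Log2 difference, ethanol minus control, of each of the 16 probe sets (points) with its 95% confidence interval from limma (lines). Every interval spans 0, the outermost bounds are -0.74 in Tgfb1 and 0.59 in Tgfbr1, and the points run from -0.26 to 0.21.

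Array by array, ethanol 4 was the lowest of the ethanol arrays in 12 of 16 probe sets (75% of members), where it was lowest in 42.0% of all probe sets. Control 4 was the lowest control in 7 of 16 (43.8%), against 29.6% of all probe sets, and those 7 held Tgfb2, both of Tgfb3, 1 of Tgfbr1, 1 of Tgfbr3, Agt and 1 of Agtr2. Ethanol 4 and control 4 were also the arrays with the widest spread of log2 values, at 1.46 and 1.44. Control 1 was the lowest control in 5 of 16 (31.2%), near its share of 25.1% over all probe sets, and these were 3 of Agtr1a, 1 of Agtr2 and 1 of Tgfbr1. These counts are descriptions, since several probe sets read the same gene.

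**Figure D4:**
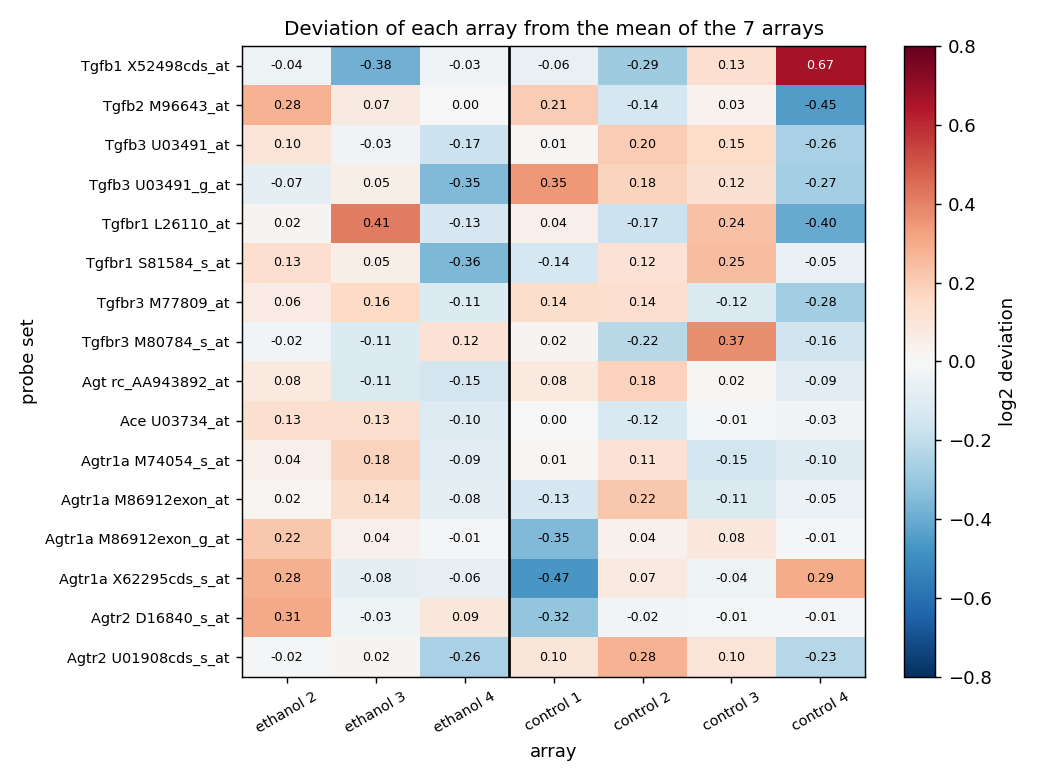
Deviation of each array from the mean of the 7 arrays, in log2 units, for the 16 probe sets, with ethanol arrays left of the line and control arrays right of it. The departures furthest from 0 are 0.67 of control 4 in Tgfb1, -0.47 of control 1 in Agtr1a X62295cds_s_at and -0.45 of control 4 in Tgfb2, and in no row are the groups separated.

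As a description of likeness, the genes whose probe sets followed a member most closely over the 7 arrays were found among all probe sets with 1 symbol. For Tgfb1 they were Stx1a, the syntaxin 1A gene (Pearson r = 0.953, Spearman rho = 0.964, n = 7), and Spp1, which encodes osteopontin (r = 0.950, rho = 0.893). For Agt they were Nppa, the atrial natriuretic peptide gene (r = 0.985, rho = 0.929), and Nudt4 (r = 0.983, rho = 0.964). For Ace they were Anp32a (r = 0.989, rho = 0.929) and Sct, the secretin gene (r = 0.965, rho = 0.964). These are the highest of many correlations over few arrays, whose spread of values all genes share, so no p is given.

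Around the members, 1 pathway gene passed the test, and it stood in the list of latent TGF-beta binding and activation. The lists were chosen with earlier results of these data known, so its place there is a description only. Of 19 measured genes of latent TGF-beta binding and activation, 0 were higher and 1 was lower at adjusted p under 0.05, and it was the 1 gene called among all 4736. It was Plau, the urokinase gene, whose product makes plasmin, a protease able to release TGF-beta from its latent complex. Plau read 5.44, 5.42 and 5.47 in ethanol arrays 2, 3 and 4, against 6.66, 6.50, 6.67 and 6.45 in control arrays 1 to 4, a difference of -1.13 (SE 0.11, limma adjusted p = 0.0032). All ethanol arrays lay below all controls. Without variance moderation its limma adjusted p was 0.0691, which ends the call. Ltbp1, a latent TGF-beta binding protein gene, was at -0.40 and Plaur, the urokinase receptor gene, at -0.48, both with adjusted p of 0.967. The list had a median difference of -0.054, against -0.014 over all 4736 genes. At unadjusted p under 0.05 in limma, 2 were lower and 0 higher (10.5%, against 4.37% of all genes). Probe sets not used for the list include Ltbp2 Y12760cds_at at -0.35, Furin X55660_g_at at -0.39 and Dcn Z12298cds_s_at at 0.27. The probe sets used for these genes were at 0.11, -0.095 and 0.20.

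The signal transducers and the rest of the superfamily gave 0 passing genes. Of 15 SMADs and other transducers, 6 were above 0 (40%, against 46.6% of all genes) and 9 below (median -0.021), and 1 had an unadjusted p under 0.05 (6.67%, against 4.37% of all genes). Smad1, the gene of a transducer of bone morphogenetic protein signals, was at -0.17, with a limma adjusted p of 0.967. Of 27 other superfamily ligands, receptors and antagonists, 11 were above 0 (40.7%) and 16 below (median -0.054), and 1 had an unadjusted p under 0.05 (3.70%). Bmp6 and Bmp7, bone morphogenetic protein genes, were at -0.28 and 0.26 and Amhr2, the receptor gene of anti-Mullerian hormone, at -0.23, each with limma adjusted p of 0.967. A probe set not used for this list, Bmp3 S77492_i_at, was at 0.55 with no overlap between the groups (limma adjusted p = 0.967). It lay at percentile 4.52 of mean level, and the Bmp3 probe set used was at 0.26.

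Genes known to be induced by TGF-beta did not pass either, and 6 of 28 had an unadjusted p under 0.05 in limma (21.4%, against 4.37% of all genes). Of the 6, 5 were lower, and these were Eln, Col3a1, Col1a1, Col1a2 and Tagln, genes of elastin, fibrillar collagens and a smooth muscle protein. The single higher one was Sparc, a matrix glycoprotein gene, whose 4 probe sets ran from -0.95 to 1.01. The probe set that stood for it, rc_AA892248_at, was at 1.01 (limma adjusted p = 0.403). Its rc_AA891204_s_at and Y13714_at were at -0.95 and -0.80 (limma adjusted p = 0.109 and 0.544). In both of these all ethanol arrays lay below all controls. Over the list 13 genes were above 0 and 15 below, with a median of -0.058. Probe sets not used for this list include Pdgfb Z14117cds_i_at at 0.42 and Lox S66184_s_at at -0.27. The probe sets used for Pdgfb and Lox were at -0.027 and 0.042. All 5 of the lower genes are also among the fibroblast and smooth muscle markers, whose 16 measured genes summed to 572 to 609 on the linear scale in ethanol arrays and to 593 to 827 in controls. Control 4 was the lowest control in that sum, at 593. The 5 genes are themselves terms of the sum, so it gives no separate reading of fibroblasts and smooth muscle cells. Of the 16 markers, 4 were above 0 (25%, against 46.6% of all genes) and 12 below, the 5 among them. The part of these cells in the values was not tested.

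Of 23 other renin-angiotensin and kinin genes, 0 passed, with 9 above 0 (39.1%, against 46.6% of all genes) and 14 below (median -0.015). In limma 3 had an unadjusted p under 0.05 (13.04%, against 4.37% of all genes). Klk1, a kallikrein gene whose product releases kinins, was at 0.50, with no overlap between the groups. Nln, which encodes the angiotensin- and neurotensin-cutting protease neurolysin, was at -0.39, again with no overlap. Hsd11b1, the gene of the enzyme that regenerates active glucocorticoid, was at 0.53. Their limma adjusted p were 0.962, 0.967 and 0.967, and the other Klk1 probe set stood at 0.12.

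**Figure D5:**
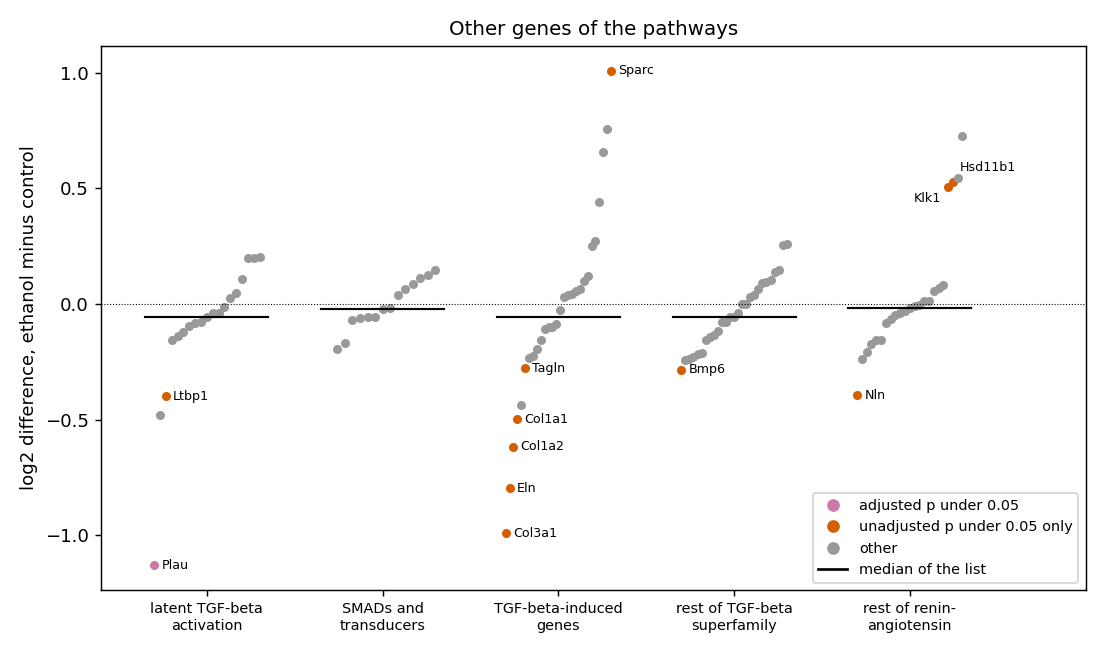
Log2 difference, ethanol minus control, of the measured genes in 5 pathway lists, all but 1 of the transducers, 1 probe set per gene, sorted within each list; the line is the median, and plotted genes with an unadjusted p under 0.05 in limma are named. Plau at -1.13 is the only point past the adjusted threshold, and the medians lie between -0.058 and -0.015.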

How the data were processed

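Each animal gave 1 array. The deposited log2 values were read as log2 from their range of 1.65 to 12.84; how the authors summarised and normalised the probes is not stated in any source used here, and a summary that pulls dim probe sets together would make their differences too small. From 8799 probe sets, 59 array controls were left out. Genes were named from the platform annotation, and all 16 member probe sets matched the RefSeq gene table by Entrez identifier. Ethanol was compared with control in limma 3.58.1 (R 4.3.3; group as the only term, empirical Bayes), two-sided, with Benjamini-Hochberg adjustment over all 8740 probe sets and a threshold of 0.05. In the lists, the probe set with the highest mean stood for a gene. List genes were named by an unadjusted p under 0.05 or the 3 lowest p of a list; 2 transducer genes that it names are counted but not reported here. A summed level adds values taken out of log2. Percentiles show how near a probe set lies to the array floor and rank no genes. The model was tested on simulated data. Members and lists were chosen with earlier results of these data known. Alternatives were quantile normalization, median centring, a filter at the 25th percentile of mean level, a trended and robust prior, a replicate block, leaving out each array, array weights, no variance moderation, and gene means over probe sets. Figures used matplotlib 3.10.9 in Python 3.11.15.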

Additional observations from a re-analysis of the deposited data

Results flagged for a closer look

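Among the 4 controls, the gap between the outermost array and its neighbour was set against the range of the group in 101 probe sets, 16 of them of the TGF-beta and renin-angiotensin genes. In 2 the gap was large, 1 of them a member, and chance gives about 1 in 20. Agtr2 D16840_s_at read 2.638 in control 1, while the remaining controls read 2.93 to 2.95 and the ethanol arrays lay between 2.92 and 3.26. Cebpa X12752_at, a type 2 cell marker, read 6.043 in control 2, while the ethanol arrays lay between 6.09 and 6.90 and the remaining controls between 6.42 and 6.47.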

How the results depend on the processing

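Under all alternatives run, 0 of the 16 probe sets passed at adjusted p under 0.05. At unadjusted p under 0.05 the count was 0 in limma, 1 with array weights (Tgfb1, adjusted p = 0.379) and 0 to 1 with each array left out, where the 1 was Tgfb3 U03491_g_at without control 4. Of 233 comparisons of a probe set with its value under an alternative, 217 kept their direction and 16 reversed. The reversals were in Tgfbr3 M80784_s_at (-0.0068), at 0.0016 after quantile normalization, 0.0056 after median centring and -0.082 to 0.12 with each array left out, and in Agtr1a X62295cds_s_at (0.084), at -0.060 with the replicate block and -0.060 to 0.19 with each array left out. With each array left out Tgfb3 U03491_at ran from -0.15 to 0.013, Tgfbr1 S81584_s_at from -0.19 to 0.050, Tgfbr3 M77809_at from -0.016 to 0.14 and Agtr1a M86912exon_at from -0.012 to 0.12. The mean over a gene's probe sets reversed Tgfbr1 S81584_s_at (0.038), Tgfbr3 M80784_s_at (0.030), Agtr2 U01908cds_s_at (0.032) and Sparc (-0.29), because their other probe sets point the other way. The cause of the other reversals was not tested. The filter on dim probe sets removed 3 of the 16, so those have no value under it. Over all probe sets 13 passed, 23 with the replicate block and 0 without variance moderation, with 367 then at unadjusted p under 0.05. Plau, the pathway list gene that passed, had an adjusted p of 0.0691 without variance moderation, so the list count was 0 there, with 12 at unadjusted p under 0.05. The labels do not say whether replicate numbers pair animals. Deviations of the arrays numbered 2, 3 and 4 correlated between the groups at 0.43, 0.067 and 0.43. Ethanol 2 and ethanol 4 correlated best with the control of their own number, and ethanol 3 with control 1, at 0.10. These values do not settle pairing, and the main fit has no term for it. The replicate block, in which control 1 carries no contrast, changed no call among the 16. Probe sets near the array floor, Agtr1a M74054_s_at and Agtr2 D16840_s_at among them, could hide a change.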
